A study of Mus musculus with 69 samples.

Results

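Colony-stimulating factors are secreted proteins that drive the growth, survival and function of macrophages and granulocytes. M-CSF, the product of Csf1, signals through the receptor tyrosine kinase encoded by Csf1r. GM-CSF, the product of Csf2, signals through an alpha chain, encoded by Csf2ra, paired with the common beta chain, encoded by Csf2rb, and G-CSF, the product of Csf3, signals through the receptor encoded by Csf3r. In the lung, GM-CSF is needed for the maturation of alveolar macrophages and for surfactant clearance, while G-CSF and its receptor govern the output and mobilisation of neutrophils. Members were taken as every array probe whose accession belongs to Csf1, Csf2, Csf3, Csf1r, Csf2ra, Csf2rb or Csf3r in RefSeq, which gave 11 probes for 7 genes, out of 41174 probes and 18660 genes tested. The rule for finding members uses no measured value, although the family was chosen with earlier results of these data known.

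RNA came from lung of 69 female C57BL/6 mice, aged 5 to 7 weeks on arrival and acclimatised for 1 to 3 weeks, 1 mouse per array. Each mouse received a single intratracheal instillation of 18, 54 or 162 µg of a titanium dioxide nanomaterial (nano-TiO2), named NRCWE-025 or NRCWE-030, in vehicle, or of vehicle alone, and lungs were collected on day 1 or day 28. Each of the 14 groups held 5 mice except 162 µg of NRCWE-025 at day 28, which held 4, and both materials were compared with the same vehicle mice of a day. The instilled lung of a healthy mouse is an acute exposure model, and a small frozen section of whole lung was used, so fewer cells of a type and less RNA per cell cannot be told apart in any value below. Values are log2 ratios of lung RNA, in the Cy5 channel, to a common mouse reference RNA, in the Cy3 channel, on Agilent two-colour arrays. A positive value means more signal in lung than in the reference, and levels are not compared between genes, since each ratio depends on the reference.

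Lung markers were high on these arrays, with a mean ratio over 6 epithelial markers of 5.50 ± 0.32 (SD, n = 5) in day 1 vehicle lungs. The share of probes above background in the lung channel ran from 49.1 to 72.8% (median 62.1%) and no lung spot was saturated. The median correlation with the other arrays was lowest for NRCWE-030 18 µg day 1 replicate 3 (0.885) and NRCWE-025 54 µg day 28 replicate 5 (0.897). The mean over 6 heart muscle markers ran from 0.45 to 4.62 (median 1.49) and passed 2 on 28 arrays, in 13 of the 14 groups. The 69 arrays came from 19 slides scanned on 11 days. Groups were spread unevenly over the slides and scan days, so group and slide cannot be fully told apart. A gene was called when its Benjamini-Hochberg adjusted p over all 18660 genes was under 0.05 in limma. Each p-value sets a difference against the spread between arrays within groups, which includes slide and scan day as well as mouse. The estimated correlation between arrays of a slide was 0.266 to 0.35 over the fits.

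In the RefSeq annotation of GRCm38.p6, Csf1 lay on chromosome 3 (chr3:107741048-107760469), Csf3r on chromosome 4 (chr4:126023441-126044975) and Csf2rb on chromosome 15 (chr15:78325800-78351001). Csf2 (chr11:54247270-54249899) and Csf3 (chr11:98700183-98703631) both lay on chromosome 11, Csf2 close to Il3 (chr11:54265085-54267279), the gene of the related cytokine interleukin-3. Csf2ra lay on chromosome 19 (chr19:61217191-61228461). The 250 bases before the transcript start used by RefSeq are shown for Csf1, Csf2 and Csf3r, the genes that passed a test below, and an entry was also found for Csf2ra. Capitals mark matches to GAGGAAG, a PU.1-like site, or to TTGCNNAA, a C/EBP-like site, both searched on both strands together with TTCNNNGAA, a STAT-like site, and TGANTCA, an AP-1-like site. PU.1 and C/EBP proteins are transcription factors of myeloid cells.
Csf1, chr3:107760470-107760719, minus strand: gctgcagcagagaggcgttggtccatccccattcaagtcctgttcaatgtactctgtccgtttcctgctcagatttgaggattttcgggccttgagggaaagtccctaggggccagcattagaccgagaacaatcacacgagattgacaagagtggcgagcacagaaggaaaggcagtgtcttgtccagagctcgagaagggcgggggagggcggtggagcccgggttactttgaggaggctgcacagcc
Csf2, chr11:54249900-54250149, minus strand: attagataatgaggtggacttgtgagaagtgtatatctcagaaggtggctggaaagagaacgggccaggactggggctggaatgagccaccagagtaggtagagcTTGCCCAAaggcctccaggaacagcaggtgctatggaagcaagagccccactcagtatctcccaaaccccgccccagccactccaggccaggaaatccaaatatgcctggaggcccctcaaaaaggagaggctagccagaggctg
Csf3r, chr4:126024409-126024658, plus strand: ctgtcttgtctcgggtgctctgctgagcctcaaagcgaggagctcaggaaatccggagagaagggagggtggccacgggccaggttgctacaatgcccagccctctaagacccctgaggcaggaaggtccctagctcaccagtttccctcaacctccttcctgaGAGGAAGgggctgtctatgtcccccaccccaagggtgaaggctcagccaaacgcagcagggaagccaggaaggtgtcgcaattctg

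The Csf3r window held GAGGAAG at 86 to 80 bases before the start, and the Csf2 window held TTGCCCAA at 145 to 138 bases before it. The Csf2ra window held GAGGAAG at 14 to 8 and again at 8 to 2 bases before the start, 2 matches that share a base, and the Csf1 window held none of the 4 motifs. By its coordinates, the Csf3r window lay inside the annotated gene, before a transcript start downstream of the first base of the gene. The Csf2ra window overlapped the start of its annotated gene. Of all 32851 promoter windows of this length, 10.6% held GAGGAAG, 9.56% TTGCNNAA, 7.02% TTCNNNGAA and 6.75% TGANTCA. A match is a string of letters and not a measured site.

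Of the ligands, the Csf1 ratio was higher than vehicle at the highest dose of NRCWE-030 on day 1. Csf2 ranged most widely and was higher in lungs given 54 µg of NRCWE-030 than in lungs given 54 µg of NRCWE-025 on day 28. Csf3 was near or below background on nearly every array. In the F-test of dose (vehicle, 18, 54 and 162 µg), no ligand was called for either material on either day, where 0.0214% of all genes were called for NRCWE-025 on day 1, 0.954% for NRCWE-030 on day 1, 0.0268% for NRCWE-025 on day 28 and 0.102% for NRCWE-030 on day 28.

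Csf1 was read by the probe A_51_P195506, printed 10 times on each array with a median SD between its spots of 0.055, and was above background on all 69 arrays. In day 1 vehicle lungs the 5 log2 ratios were -1.66, -1.78, -1.84, -1.46 and -1.37. After 162 µg of NRCWE-030 they were -1.16, -1.39, -0.98, -1.14 and -1.08. Of the 5 treated lungs, 4 lay above the highest vehicle lung and 1 overlapped the vehicle range. The difference was 0.47 ± 0.12 (SE; 1.39-fold, adjusted p = 0.0442; called under 6 of 14 alternatives), and at this dose 2 of the 7 members were called against 1.69% of all genes. The F-test of dose over all 4 groups did not pass for Csf1 (adjusted p = 0.172), and the differences at 18 µg (0.15) and 54 µg (0.19) were not called, in comparisons that called 0.00536 and 0.0804% of genes.

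The Csf1 call was a narrow one. Of 20 fits in which 1 array was left out, 13 no longer called it, and the difference was between 0.42 and 0.54 in all 20. The arrays whose loss ended it were vehicle replicates 1 to 4 and, of NRCWE-030, 18 µg replicates 1, 2, 4 and 5, 54 µg replicate 2 and 162 µg replicates 1, 3, 4 and 5. With slide as a fixed block the difference was 0.33 (adjusted p = 0.251), with scan day as a fixed block 0.35 (0.259), and without the arrays whose heart muscle markers passed a mean of 2 it was 0.36 (0.292). On the slides that held a lung of each group, 1 against 1, treated minus vehicle was 0.39 and 0.30. With NRCWE-025 at 162 µg on day 1 the Csf1 ratios were -1.57, -1.41, -1.57, -1.01 and -1.36, a difference from the same vehicle lungs of 0.24 (95% interval -0.05 to 0.53, adjusted p = 0.515). The materials did not differ by test at that dose (0.23, interval -0.02 to 0.49, adjusted p = 0.831).

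On day 28 the vehicle lungs gave Csf1 ratios of -1.83, -1.82, -1.96, -1.60 and -1.54. The 54 µg NRCWE-030 lungs sat in a tight band at -1.51, -1.43, -1.50, -1.55 and -1.50. The 162 µg NRCWE-030 lungs were spread widely, at -1.66, -1.61, -1.06, -1.88 and -1.12, with 2 of the 5 above every vehicle lung. Neither dose was called (differences of 0.25 and 0.28, adjusted p = 0.803 and 0.653), in comparisons that called 0.0536 and 0.0965% of genes. Across the 14 group means, Csf1 was highest after 162 µg of NRCWE-030 on day 1 (-1.15 ± 0.15) and lowest in day 28 vehicle lungs (-1.75 ± 0.18). The step from the highest group to the next, 162 µg of NRCWE-025 on day 1 (-1.38 ± 0.23), was of the size of the SD, and every other step between neighbours in this order was smaller than the SD of either group.

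**Figure D1:**
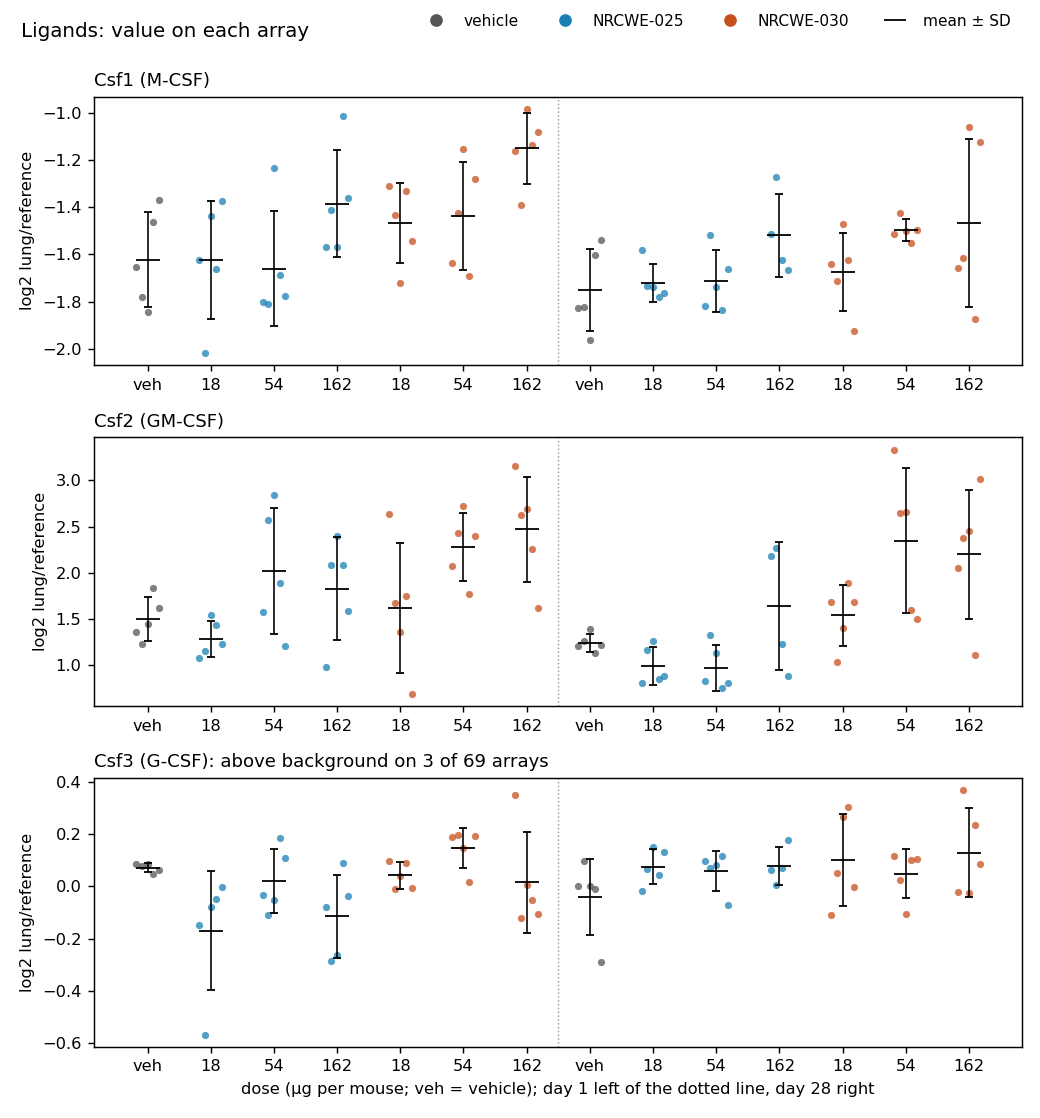
Log2 lung over reference ratio of Csf1, Csf2 and Csf3 on each array (points) by dose in µg per mouse, with vehicle in grey, NRCWE-025 in blue, NRCWE-030 in orange and day 28 to the right of the dotted line; bars are mean ± SD. The Csf1 ratio reached -0.98 after 162 µg of NRCWE-030 on day 1, Csf2 spanned 0.69 to 3.33, and Csf3 stayed between -0.57 and 0.37 with 3 of 69 arrays above background.

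Csf2, the GM-CSF gene, was read by the probe A_51_P171075, also printed 10 times, with a median SD between spots of 0.135. It was above background in the lung channel on all 69 arrays and in the reference channel on 61. In day 1 vehicle lungs the ratios were 1.36, 1.23, 1.45, 1.83 and 1.61. After 54 µg of NRCWE-030 they were 2.08, 2.43, 2.72, 1.77 and 2.40, and after 162 µg 3.16, 2.62, 2.69, 2.25 and 1.62. At each of these doses 4 of the 5 lungs lay above the highest vehicle lung and 1 lay within the vehicle range. The differences from vehicle were 0.78 ± 0.29 (SE, adjusted p = 0.392) and 0.97 ± 0.29 (adjusted p = 0.105), neither of them called. The 162 µg difference was called under the scanner software's own log ratio (1.15, adjusted p = 0.0277), under scale normalisation between arrays (1.16, 0.0218) and with slide as a random block (1.04, 0.0278), and over 14 alternatives its adjusted p ran from 0.0218 to 0.577.

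After NRCWE-025 on day 1 the Csf2 ratios were 1.57, 2.57, 2.84, 1.89 and 1.20 at 54 µg and 0.98, 2.08, 2.40, 2.09 and 1.59 at 162 µg. In each of these groups 3 of 5 lungs were above every vehicle lung and 1 was below the lowest of them. The differences from vehicle were 0.52 (95% interval -0.04 to 1.08) and 0.33 (-0.23 to 0.89), and neither was called, where 0 and 0.209% of all genes were.

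The widest gap in Csf2 between the materials was on day 28. Vehicle lungs gave 1.21, 1.26, 1.39, 1.13 and 1.22, a narrow range. Lungs given 54 µg of NRCWE-025 gave 0.83, 1.33, 1.13, 0.75 and 0.81, and lungs given 54 µg of NRCWE-030 gave 3.33, 2.65, 2.66, 1.60 and 1.50. Every NRCWE-030 lung at 54 µg lay above every vehicle lung and every NRCWE-025 lung of that dose, although it did so by little in 2 of the 5. Of all genes, 0.793% lay wholly above vehicle in this group. NRCWE-030 exceeded NRCWE-025 by 1.38 ± 0.31 (SE; 2.60-fold, adjusted p = 0.0498), where 0.0804% of genes were called.

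In the F-test of the materials over the 3 doses on day 28, Csf2 was the 1 member called (adjusted p = 0.0415; 0.241% of all genes). The corresponding day 1 test called none of the members and 0.155% of genes. Against vehicle, the day 28 differences for NRCWE-030 were 0.30 at 18 µg, 1.11 ± 0.32 at 54 µg (adjusted p = 0.407) and 0.96 ± 0.32 at 162 µg (adjusted p = 0.428). At 162 µg of NRCWE-030 the ratios were 2.05, 2.38, 2.45, 1.10 and 3.01, so that 4 lungs were above the vehicle range and 1 below it, and at 162 µg of NRCWE-025 the 4 lungs fell apart into 2.18 and 2.27 against 1.23 and 0.88, in a comparison with vehicle that called 0.0161% of genes. With slide as a fixed block the differences from vehicle at 54 and 162 µg of NRCWE-030 were called, at 1.60 (adjusted p = 0.00508) and 1.05 (adjusted p = 0.0306). With scan day as a fixed block they were 1.60 (adjusted p = 0.00538) and 1.06 (adjusted p = 0.0681, not called). The 54 µg difference was called under these 2 of 14 alternatives only.

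Lungs given 18 µg stayed nearer to vehicle in Csf2. On day 1 NRCWE-025 lungs given 18 µg had ratios of 1.08, 1.15, 1.54, 1.43 and 1.23, all inside or just below the vehicle range. NRCWE-030 lungs given 18 µg on that day spread from 0.69, the lowest value of all 69 arrays, through 1.35, 1.67 and 1.74 to 2.64. On day 28 NRCWE-025 lungs had 0.80, 1.16, 1.26, 0.84 and 0.88, and NRCWE-030 lungs had 1.68, 1.04, 1.40, 1.89 and 1.69. None of these differences from vehicle was called, in comparisons that called 0.0589% (NRCWE-025) and 0.118% (NRCWE-030) of genes on day 28. By group mean, the 4 highest of the 14 groups were the 54 and 162 µg groups of NRCWE-030 on either day, from 2.20 ± 0.70 to 2.47 ± 0.57, and the lowest was 54 µg of NRCWE-025 on day 28 (0.97 ± 0.25). The step from day 28 vehicle (1.24 ± 0.10) to the next lower group, 18 µg of NRCWE-025 on day 28 (0.99 ± 0.21), was the only step between neighbours over the SD of both groups.

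The difference between materials in Csf2 also moved with the processing. It was called under 4 of 14 alternatives (1.60 for the scanner software's log ratio, 1.26 when slide was a random block, and 1.38 for the brightest probe or without dim probes), and over all 14 it ran from 0.51 to 1.60, with adjusted p from 0.0328 to 1. Leaving out 1 array at a time, it was called in 22 of 69 fits and ran from 1.13 to 1.59 (adjusted p = 0.0104 to 0.348), and the 47 arrays whose loss ended the call came from all 14 groups. On the slides that held both materials at 54 µg, 1 lung of each, NRCWE-030 minus NRCWE-025 was 0.75 and 0.47. With slide as a fixed block the difference was 1.09 (adjusted p = 0.251), with scan day 1.06 (0.249), and without the arrays whose heart muscle markers passed a mean of 2 it was 0.51 (adjusted p = 1). That last fit held 2 of the 5 lungs in each of the NRCWE-025 and NRCWE-030 groups at 54 µg. In replicate order, the heart muscle mean of these NRCWE-030 lungs was 2.09, 3.39, 3.10, 0.94 and 0.87. The lungs left out were thus those with Csf2 ratios of 3.33, 2.65 and 2.66, and those kept had 1.60 and 1.50. In the NRCWE-025 lungs the heart muscle mean was 2.95, 1.87, 4.34, 1.51 and 2.73. After 162 µg of NRCWE-030 on day 28 it was 1.49, 3.67, 0.87, 0.74 and 3.47. The part of heart tissue in the Csf2 values was not tested.

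Monocyte and macrophage markers varied with Csf2 among the day 28 lungs. Their mean level per array, over 9 markers, ran from 0.72 to 0.93 in day 28 vehicle lungs and from 0.68 to 0.93 after 54 µg of NRCWE-025. In the 54 µg NRCWE-030 lungs it was 1.50, 1.55, 1.21, 0.72 and 0.68, high in the same 3 lungs whose Csf2 ratios were 3.33, 2.65 and 2.66. After 162 µg of NRCWE-030 it was 0.86, 1.56, 1.23, 0.80 and 1.78, highest in the lung highest in Csf2 and lowest in the lung lowest in Csf2. None of the 9 markers was called between the materials at 54 µg, where 8 were higher with a median of 0.18. The part of these cells in the Csf2 difference was not tested.

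Csf3, the G-CSF gene, was read by the probe A_51_P317176, which was well above background in the lung channel on 3 of 69 arrays and in the reference channel on none. These 3 arrays were NRCWE-030 18 µg day 1 replicate 2, NRCWE-030 162 µg day 1 replicate 1 and NRCWE-025 162 µg day 28 replicate 3. In the other 11 groups no array measured Csf3 above background, so only a bound exists there. Csf3 differences plotted or listed elsewhere are between values near background, and none is read as a fold. No comparison called Csf3. For the related ligands, Il3 was above background on 0 of 69 arrays and Il5, the interleukin-5 gene, on 2. Il34, which encodes the second ligand of the M-CSF receptor, was above background on all 69.

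In day 1 vehicle lungs Il34 gave 0.50, 1.15, 1.11, 1.22 and 1.36, and after 162 µg of NRCWE-030 it gave 1.73, 1.59, 1.72, 1.44 and 1.42. All 5 treated lungs lay above all vehicle lungs, which held for 2.9% of genes in this direction. The difference was 0.51 ± 0.14 (SE, adjusted p = 0.0693) and was not called. Of the 5 ligands related to the colony-stimulating factors that were listed (Il34, Il3, Il5, Kitl and Flt3l), none was called at this dose and 3 of 5 were higher, with a median difference of 0.03 against 0.0045 for all genes. The 5 include Il3 and Il5, which lay near background, so their directions carry little meaning.

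**Figure D2:**
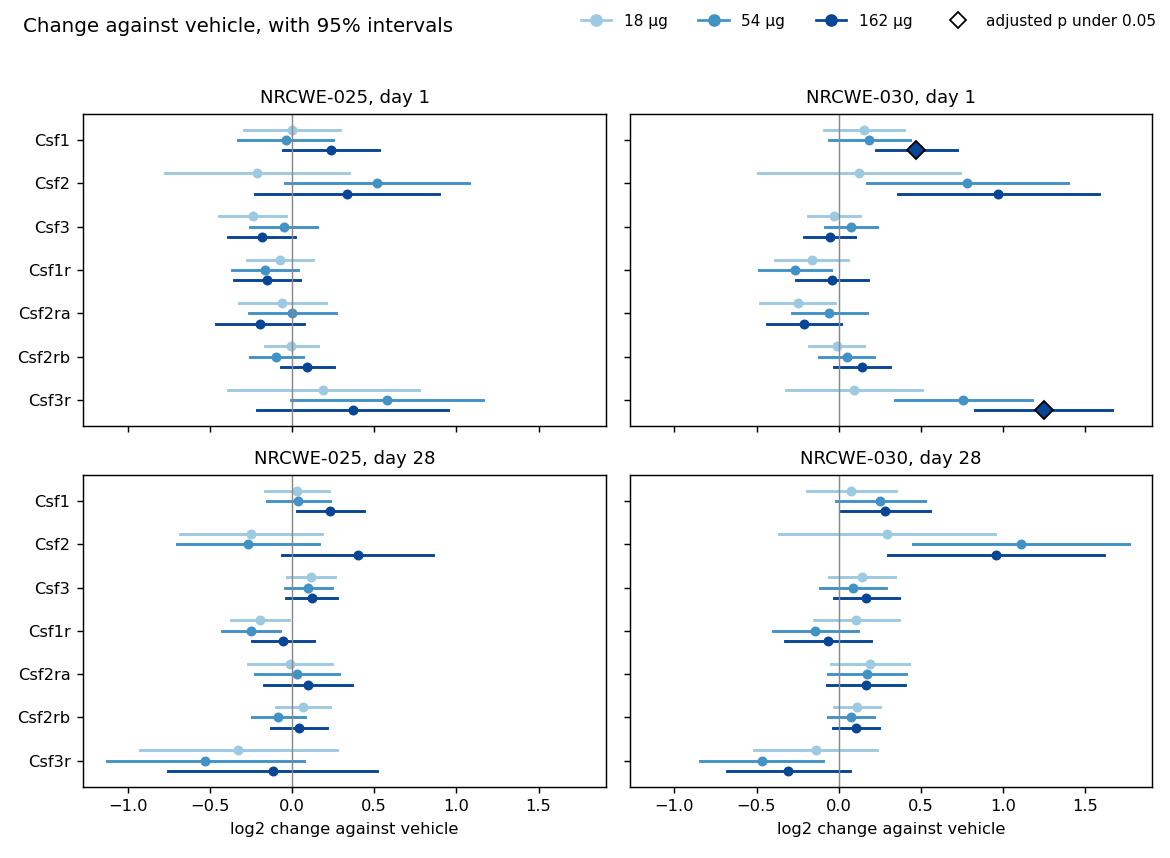
Log2 difference from vehicle with its 95% interval for the 7 members, by material and day, at 18, 54 and 162 µg (light to dark). Diamonds mark the 2 differences with an adjusted p under 0.05, Csf1 (0.47) and Csf3r (1.25), both at 162 µg of NRCWE-030 on day 1; Csf3 was below background on nearly all arrays.

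Of the receptors, Csf3r rose with dose of NRCWE-030 on day 1, to 2.38-fold over vehicle at 162 µg, and was the 1 member called in a dose F-test. The Csf1r and Csf2ra ratios were not called in any comparison. The common beta chain gene Csf2rb was not called either, but 1 of its 3 probes was. Csf2rb2, a paralogue of Csf2rb that encodes a beta chain used by the mouse interleukin-3 receptor, was called at 2.00-fold in the same comparison as Csf3r.

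Csf3r was read by the probe A_51_P515639, above background in the lung channel on all 69 arrays and in the reference channel on 4, so that the denominator of its ratio lay near background. Day 1 vehicle lungs gave 0.70, 0.76, 0.82, 1.37 and 1.50. After NRCWE-030 the lungs gave 1.25, 1.45, 0.80, 1.24 and 0.87 at 18 µg, then 1.25, 2.02, 2.16, 1.48 and 2.05 at 54 µg, and 1.87, 2.60, 2.38, 2.39 and 2.14 at 162 µg. The 18 µg lungs lay within the vehicle range, 3 of the 54 µg lungs lay above it, and all 5 of the 162 µg lungs lay above every vehicle lung, as 2.9% of all genes did. The group means were 1.03 ± 0.37, 1.12 ± 0.28, 1.79 ± 0.40 and 2.28 ± 0.28 (SD, n = 5 each).

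The F-test of dose for Csf3r gave an adjusted p of 0.00617 and 162 µg differed from vehicle by 1.25 ± 0.20 (SE; 95% interval 0.83 to 1.66, adjusted p = 0.00262). It differed from 18 µg by 1.16 ± 0.20 (adjusted p = 0.00583), in a comparison that called 1.03% of genes. The 54 µg difference from vehicle was 0.76 ± 0.20 (adjusted p = 0.139) and the 18 µg difference 0.09 ± 0.20 (adjusted p = 0.962). Leaving out any 1 of 20 arrays kept the 162 µg call, with a difference of 1.17 to 1.37. In the lung channel alone it was 1.43 (adjusted p = 0.000513), and without the arrays whose heart muscle markers passed a mean of 2 it was 1.15 (adjusted p = 0.0451).

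The Csf3r call was lost under 3 alternatives. With the scanner software's log ratio the difference was 0.30 (adjusted p = 0.795). With slide as a fixed block it was 0.87 (adjusted p = 0.0945), and with scan day as a fixed block 0.90 (adjusted p = 0.0873). On the slides that held a lung of each group, 1 against 1, treated minus vehicle was 0.88 and 0.50. Vehicle lungs on those slides gave 1.37 and 1.50. The other vehicle lungs, on slides without a treated lung of this dose, gave 0.70, 0.76 and 0.82. Dose and slide thus cannot be fully told apart for Csf3r.

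NRCWE-025 gave Csf3r ratios of 1.35, 1.49, 2.23, 1.72 and 1.25 at 54 µg and 0.71, 1.24, 1.51, 2.55 and 0.99 at 162 µg on day 1. The 162 µg lungs spread from the lowest vehicle value to almost the highest value of the NRCWE-030 lungs. The differences from the shared vehicle lungs were 0.58 (95% interval -0.0037 to 1.16, adjusted p = 0.765) and 0.37 (-0.21 to 0.95, adjusted p = 0.634). At 162 µg, NRCWE-030 exceeded NRCWE-025 by 0.88 ± 0.25 (SE; interval 0.37 to 1.39, adjusted p = 0.449), in a test that called 0 of all genes, so the materials were not shown to differ in Csf3r.

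On day 28, vehicle lungs gave Csf3r ratios of 1.76, 1.89, 2.13, 1.00 and 1.26. The 162 µg NRCWE-030 lungs gave 1.37, 1.33, 0.95, 1.30 and 1.55, 4 in the lower part of the vehicle range and 1 below it. The difference was -0.31 ± 0.18 (SE, adjusted p = 0.732). The 162 µg effect of NRCWE-030 was larger on day 1 than on day 28 by 1.55 ± 0.36 (SE, adjusted p = 0.0418), and Csf3r was the 1 member of 7 called in that comparison, where 0.198% of genes were. It was called under 8 of 14 alternatives, with adjusted p from 0.00394 to 0.581.

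Neutrophil markers moved the same way in that comparison. Of 9 measured, 8 were higher, with a median of 0.69 against 0.0049 for all genes, and none was called. Between 162 µg of NRCWE-030 and vehicle on day 28, 1 of the 9 was higher and the median was -0.51. Their mean level in day 28 vehicle lungs was 2.78, 2.74, 2.92, 1.93 and 2.28, so that the 3 vehicle lungs highest in Csf3r (replicates 1 to 3) were also the 3 highest in these markers. In the 162 µg NRCWE-030 lungs of day 28 it ran from 1.75 to 2.27. The part of neutrophil number in the difference between days was not tested.

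For NRCWE-025 the same difference between days was 0.49 ± 0.37 (adjusted p = 0.656; 0.0589% of genes called). Each difference between days contains the vehicle lungs of both days, which differed in Csf3r by 0.58 ± 0.25 (day 28 over day 1, adjusted p = 0.508; 0.0375% of genes called). Without arrays high in heart muscle markers the NRCWE-030 difference between days was 1.20, in a fit that kept 1 of the 5 day 28 vehicle lungs. When 1 array at a time was left out, 13 of 69 fits no longer made the NRCWE-030 call. The arrays whose loss ended the call were vehicle day 1 replicates 1 to 3, vehicle day 28 replicates 1 to 3, and in the 162 µg NRCWE-030 groups day 1 replicates 2 to 4 and day 28 replicates 1 to 4, and over all 69 fits the value stayed between 1.42 and 1.71.

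Over the 14 groups, Csf3r was lowest in day 1 vehicle lungs (1.03 ± 0.37). The step from 162 µg of NRCWE-030 on day 1 (2.28 ± 0.28) down to 54 µg (1.79 ± 0.40) was larger than the SD of either group, and every other step between neighbours was within it. On day 28, NRCWE-025 lungs given 54 µg had Csf3r ratios of 0.85, 1.06, 1.34, 1.82 and 0.33. NRCWE-030 lungs of that dose had 1.20, 1.09, 1.00, 1.21 and 1.20, a narrow band low in the vehicle range. Neither difference was called (-0.53 ± 0.29 and -0.47 ± 0.18, adjusted p = 0.749 and 0.637), where 0.0268 and 0.0536% of genes were.

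**Figure D3:**
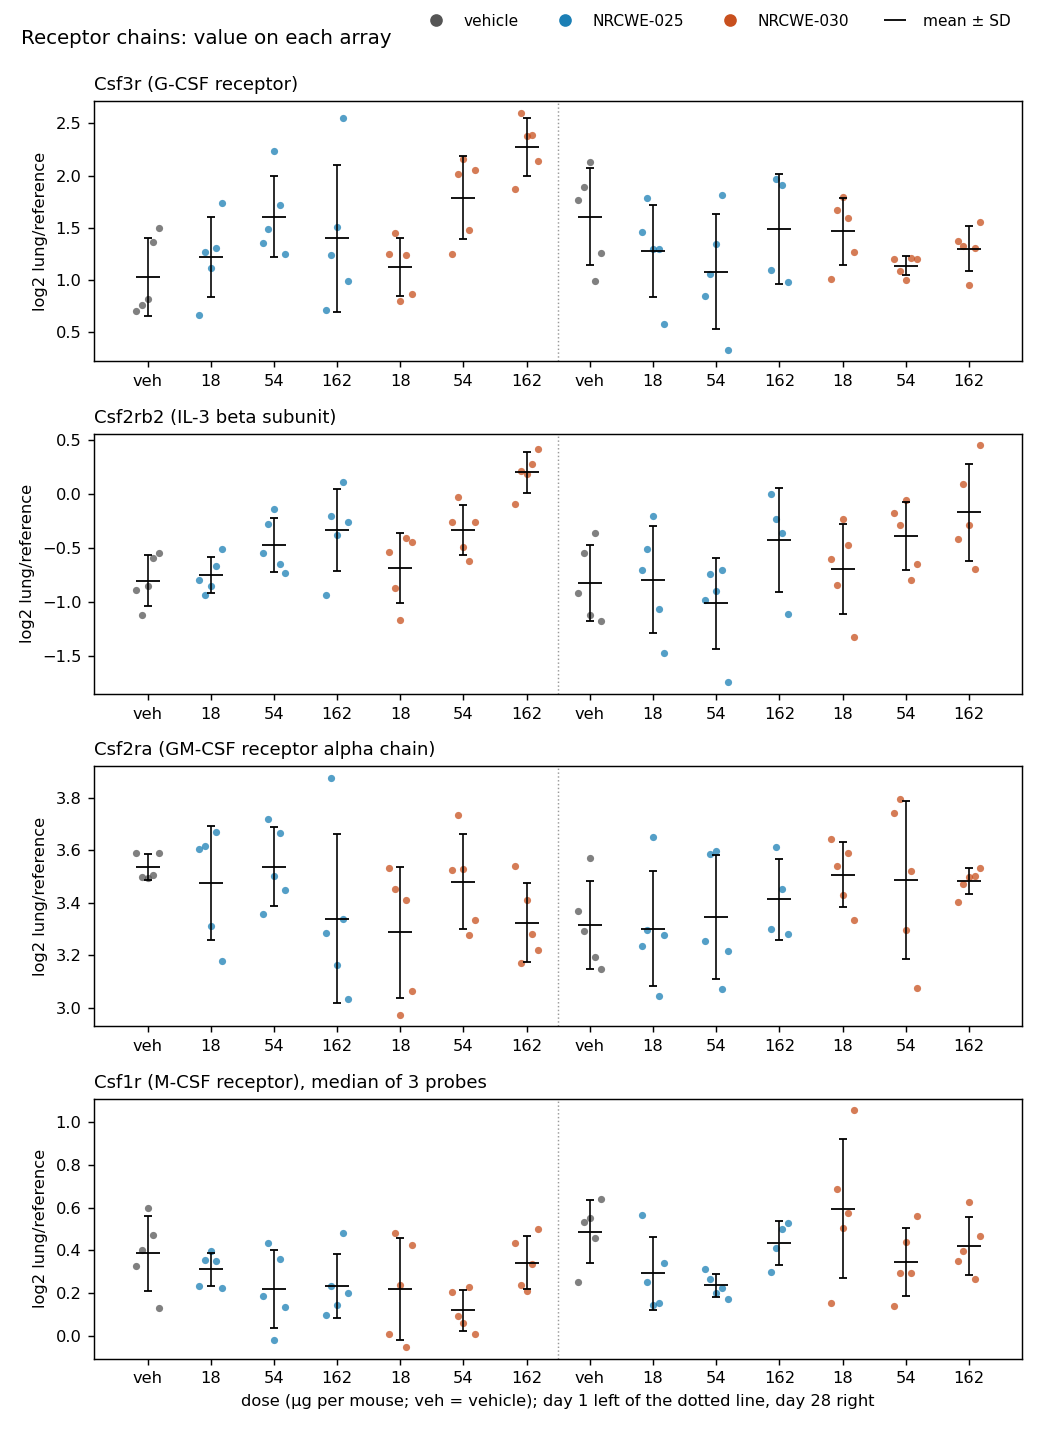
Log2 lung over reference ratio of Csf3r, Csf2rb2, Csf2ra and Csf1r on each array (points) by dose in µg per mouse, with vehicle in grey, NRCWE-025 in blue, NRCWE-030 in orange and day 28 to the right of the dotted line; bars are mean ± SD. The 5 lungs given 162 µg of NRCWE-030 lay at 1.87 to 2.60 for Csf3r on day 1, above the highest vehicle lung at 1.50, while Csf2ra stayed between 2.97 and 3.88 and Csf1r between -0.05 and 1.05 over all groups.

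Csf2rb had 3 probes on the array that did not move alike. The probe A_52_P52618 was above background on all 69 arrays, A_52_P664853 on 67 and A_52_P492939 on 27. With A_52_P52618, day 1 vehicle lungs gave 0.45, 0.94, 1.00, 0.90 and 1.09, and lungs given 162 µg of NRCWE-030 gave 1.34, 1.74, 1.63, 1.80 and 1.80. All treated lungs lay above all vehicle lungs. At the gene level, 2.9% of all genes did so in this direction. The difference was 0.79 ± 0.18 (SE) and its adjusted p over 27253 probes was 0.0378, where 1.24% of probes were called.

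At the same dose A_52_P664853 differed by 0.15 ± 0.10 (adjusted p = 0.609) and A_52_P492939 by 0.10 ± 0.11 (adjusted p = 0.805). The gene value, the median of the 3 probes, differed by 0.14 ± 0.08 (95% interval -0.03 to 0.31, adjusted p = 0.503). Taking the brightest probe of each gene instead of the median gave 0.79 (adjusted p = 0.0325) for Csf2rb. The F-test of dose for A_52_P52618 was not called (adjusted p = 0.135).

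After 162 µg of NRCWE-025 on day 1, A_52_P52618 gave 1.00, 1.53, 1.27, 1.97 and 1.40, with 4 of 5 lungs above every vehicle lung. That difference was 0.56 ± 0.18 (adjusted p = 0.187). On day 28 it was 0.38 ± 0.16 for NRCWE-030 (adjusted p = 0.658) and 0.17 ± 0.13 for NRCWE-025 (adjusted p = 0.833). Csf2rb and Csf2rb2 are neighbours on chromosome 15 with near-identical coding sequence, so a probe of one may bind transcripts of the other and their values are uncertain to that extent. The Csf2rb2 gene lies at chr15:78282507-78305721.

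**Figure D4:**
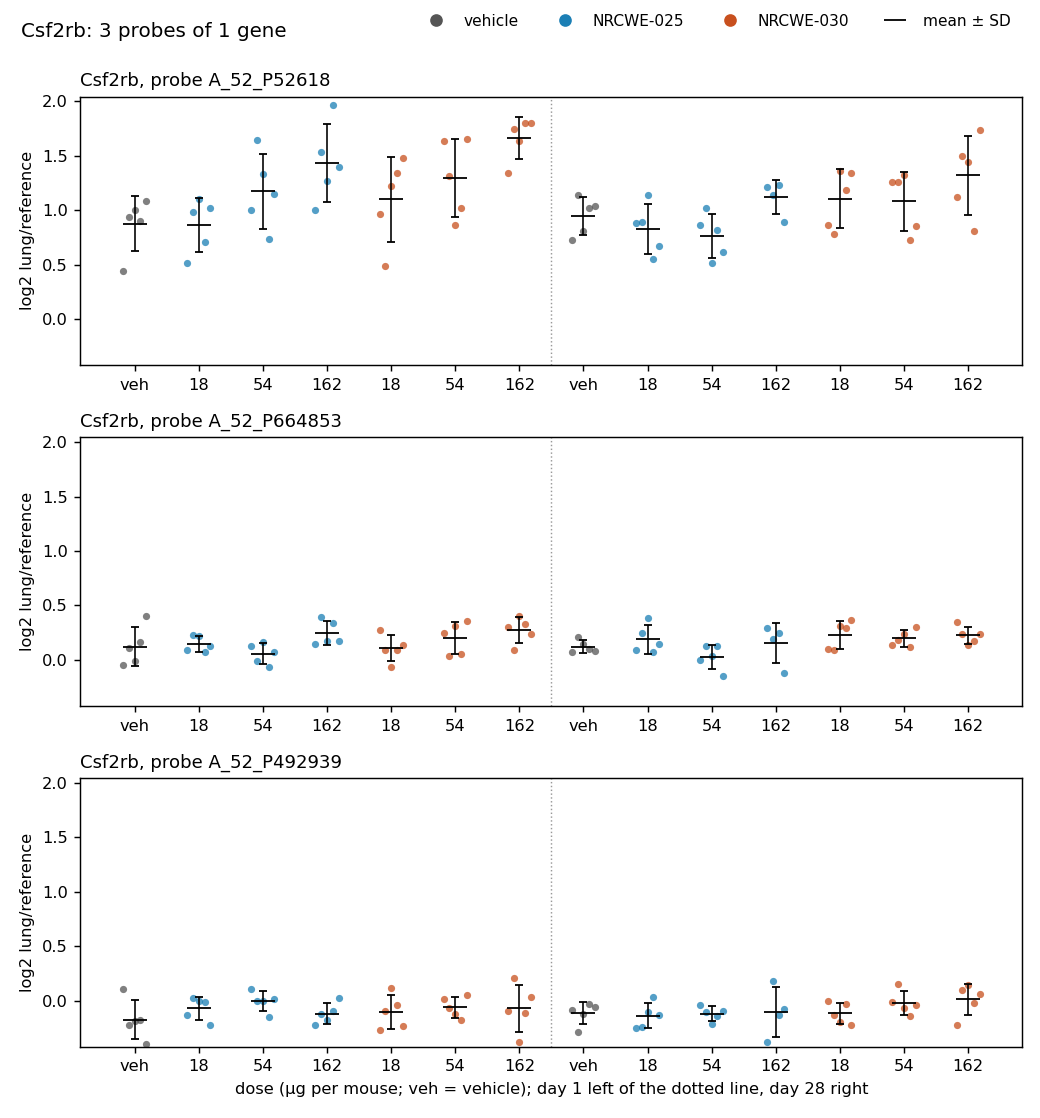
Log2 lung over reference ratio of the 3 Csf2rb probes on each array (points) on 1 common scale, by dose in µg per mouse, with vehicle in grey, NRCWE-025 in blue, NRCWE-030 in orange and day 28 to the right of the dotted line; bars are mean ± SD. Only for A_52_P52618 did the 162 µg NRCWE-030 lungs (1.34 to 1.80) lie wholly above the vehicle lungs (0.45 to 1.09) on day 1. At the gene level this held for 2.9% of all genes.

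Csf2rb2 gave -0.89, -1.12, -0.85, -0.59 and -0.55 in day 1 vehicle lungs. After NRCWE-030 it gave -0.25, -0.03, -0.49, -0.62 and -0.26 at 54 µg and -0.09, 0.22, 0.19, 0.28 and 0.42 at 162 µg. All 5 of the 162 µg lungs lay above every vehicle lung, as 2.9% of all genes did, while the 54 µg lungs overlapped them. The difference at 162 µg was 1.00 ± 0.15 (SE, adjusted p = 0.00178), where 1.69% of genes were called. The F-test of dose gave an adjusted p of 0.00583, where 0.954% of genes were called. Alternative settings and the leaving out of single arrays were examined for the 7 members only, not for Csf2rb2. On day 28 the 162 µg difference was 0.65 ± 0.22 (adjusted p = 0.452). With NRCWE-025 at 162 µg on day 1 it was 0.47 ± 0.16 (adjusted p = 0.214).

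Csf2ra, the alpha chain gene of the GM-CSF receptor, was read by A_51_P341465 and varied little, from 2.97 to 3.88 (median 3.45) over 69 arrays. Day 1 vehicle lungs lay between 3.50 and 3.59 and the 162 µg NRCWE-030 lungs between 3.17 and 3.54, overlapping ranges. The difference was -0.21 (95% interval -0.44 to 0.02, adjusted p = 0.442), and its sign turned under scale normalisation (0.09) and in the lung channel alone (0.29).

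Csf1r, the M-CSF receptor gene, had 3 probes, above background on 63 to 69 arrays. Its gene value was 0.39 ± 0.17 in day 1 vehicle lungs and 0.34 ± 0.12 after 162 µg of NRCWE-030, with wide overlap. The difference was -0.04 (95% interval -0.26 to 0.18, adjusted p = 0.94). Among its group means the lowest was 54 µg of NRCWE-030 on day 1 (0.12 ± 0.09) and the highest 18 µg of NRCWE-030 on day 28 (0.59 ± 0.32), neither of them called against vehicle.

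Of the remaining receptor chains, Il3ra, the interleukin-3 receptor alpha chain gene, was above background on all 69 arrays and differed by 0.39 ± 0.15 at 162 µg of NRCWE-030 on day 1 (adjusted p = 0.227). Il5ra was above background on 2 arrays. Of 5 further receptor chains listed (Csf2rb2, Il3ra, Il5ra, Kit and Flt3), 4 had values, all but Kit, and Csf2rb2 was the 1 called. The 4 include Il5ra, whose values lay near background.

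Genes around the pathway were counted from lists for the comparison in which members were called, 162 µg of NRCWE-030 against vehicle on day 1, where 1.69% of all genes were called. Of 10 measured inducers of colony-stimulating factors, 8 were higher, the median difference was 0.40, and 2 rose past the threshold, Il1b (1.27 ± 0.26, adjusted p = 0.0154) and Il6 (1.21 ± 0.29, adjusted p = 0.0371), both genes of inflammatory cytokines. Of 19 JAK-STAT and adaptor genes, 16 were higher with a small median of 0.06, and 1 was called, Vav1 (0.62 ± 0.16, adjusted p = 0.0477), a guanine nucleotide exchange factor of blood cells. Of 9 measured feedback inhibitors 1 was called, Dok2 (0.88 ± 0.19, adjusted p = 0.0176), an adaptor that damps tyrosine kinase signalling. Il6, Vav1 and Cebpb were chosen for mention after their values were seen.

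Of 12 measured myeloid transcription factors 2 rose in the same comparison, against 1.69% of all genes called. Bhlhe40 differed by 0.82 ± 0.15 (adjusted p = 0.00785) and Cebpb, the gene of C/EBP beta, by 0.55 ± 0.14 (adjusted p = 0.0477). In the F-test of dose Bhlhe40 was called (adjusted p = 0.0221) and Cebpb was not (0.0693). In the other 3 dose F-tests none of the listed genes was called. At 162 µg of NRCWE-025 on day 1, 8 of the 10 inducers were again higher with a median of 0.33, against the same vehicle lungs, and none was called.

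Markers of the cells that carry these receptors moved unequally. Of 9 measured neutrophil markers, the cells in which Csf3r is best known, 6 were higher and none was called, with a median difference of 0.13. Their mean level per array ran from 1.87 to 2.54 in vehicle lungs and from 1.93 to 2.70 after 162 µg of NRCWE-030 on day 1, ranges that overlapped almost fully. In this list S100a8, a granulocyte calcium-binding protein gene, differed by 0.30 ± 0.31, Cxcr2, a neutrophil chemokine receptor gene, by 0.42 ± 0.19, and Retnlg by -0.34 ± 0.35. These 3 were chosen for mention after their values were seen, and Ly6g had no value. The part of neutrophil number in the Csf3r difference was not tested.

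Of 9 measured monocyte and macrophage markers, 6 were higher with a median difference of 0.35 and 2 were called (1.69% of all genes), the integrin gene Itgam (0.46 ± 0.10, adjusted p = 0.0197) and the Fc receptor gene Fcgr1 (0.95 ± 0.20, adjusted p = 0.0177). Their mean level ran from 0.60 to 0.94 in vehicle lungs and from 0.93 to 1.40 after 162 µg of NRCWE-030. Of 9 alveolar macrophage markers 4 were higher, none was called and the median was -0.08. No marker of dendritic cells (5), eosinophils and mast cells (5) or heart muscle (6, median -0.31) was called.

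All 6 lung epithelial markers were lower, with a median of -0.47 and none called, and their mean level was 5.07 ± 0.36 against 5.50 ± 0.32 in vehicle. Among 5 endothelial and stromal markers, Dcn, which encodes the matrix proteoglycan decorin, was called in the F-test of dose (adjusted p = 0.0486) and differed by -0.94 ± 0.26 at 162 µg (adjusted p = 0.0721).

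**Figure D5:**
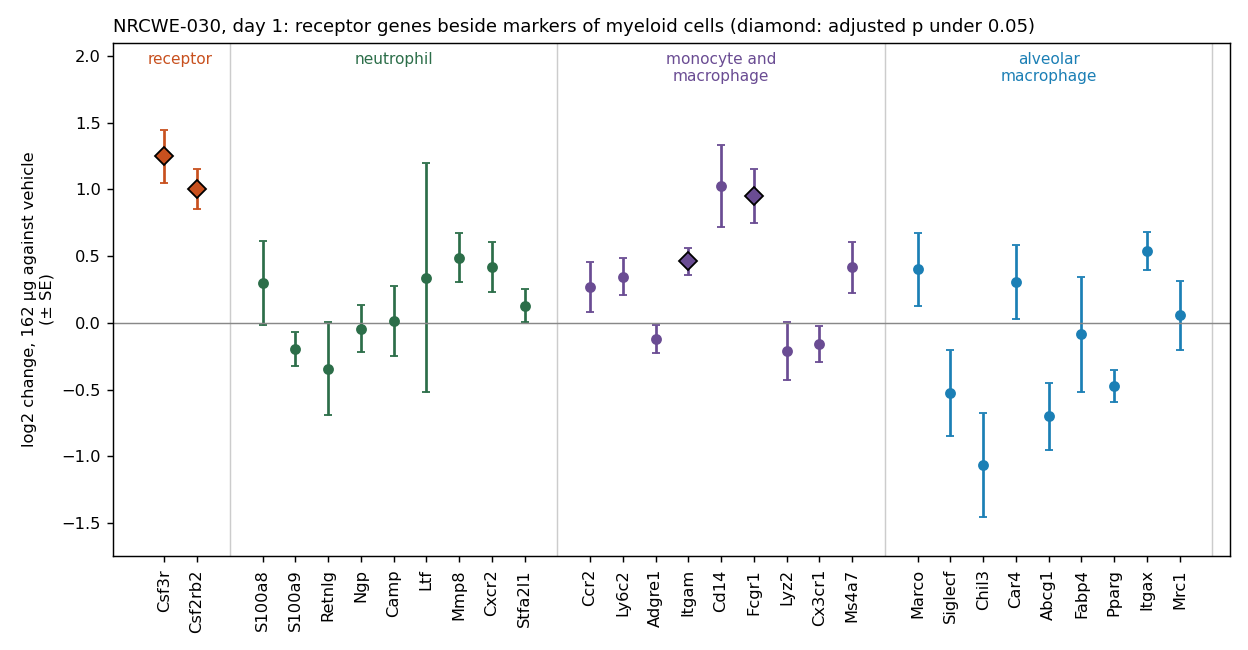
Log2 difference (± SE) between 162 µg of NRCWE-030 and vehicle on day 1 for Csf3r and Csf2rb2 beside markers of neutrophils, monocytes and macrophages, and alveolar macrophages; diamonds mark an adjusted p under 0.05. Csf3r (1.25) and Csf2rb2 (1.00) lay above all neutrophil markers, none of which was called, and Itgam (0.46) and Fcgr1 (0.95) were the markers called.

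The genes whose ratio followed Csf3r most closely over the 69 arrays were Il1r2 (Pearson r = 0.79), Amer2 (0.78), Mefv (0.75), Igsf6 (0.74) and Il1b (0.74), given as a description, since the arrays share a reference, slides and treatment groups. Il1r2 encodes the decoy receptor of interleukin-1, Mefv encodes pyrin, and Amer2 was above background on 47 of 69 arrays. At 162 µg of NRCWE-030 on day 1, Il1r2 differed from vehicle by 1.36 ± 0.19 (adjusted p = 0.00111) and Mefv by 1.27 ± 0.29 (adjusted p = 0.0306). Igsf6 differed by 0.69 ± 0.15 (adjusted p = 0.0196) and Amer2 by 0.52 ± 0.11 (adjusted p = 0.0197). All of them were called higher, in a comparison that called 1.69% of genes. They were picked for following Csf3r over arrays that include these, so their calls are not separate evidence.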

How the data were processed

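The authors hybridised each lung RNA in Cy5 against Universal Mouse Reference RNA in Cy3, without dye swaps, and deposited Agilent Feature Extraction 11.0.1.1 output, in which the columns used are signal and background intensity per spot, the software's log10 ratio and spot flags. The deposited series table of log2 ratios served as an alternative. Probes were named through RefSeq accessions (66.8% of 41174 probes, 18753 symbols, 93 of them left out for missing values). Per the labels, RNA integrity numbers were above 7. Backgrounds marked as outliers by the software were replaced by the array median of the others. Intensities were corrected by normexp (offset 50) and loess-normalised within arrays without scaling between arrays. Flagged spots were left out, spots and then probes were reduced to their median, and genes were tested in limma 3.58.1 (R 4.3.3) by F-test of dose per material and day, by dose against vehicle, and in 1 fit of 14 groups for materials and days. The code was tested on simulated data. Unless the text says that a gene was chosen after its values were seen, named genes are the 7 members with every probe, 6 related ligands and chains, list genes called in a dose F-test (at most 6 a list) and the 5 genes most correlated with a member so called. The members and lists were chosen with earlier results of these data known. The number of arrays limits the precision.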

Additional observations from a re-analysis of the deposited data

Results flagged for a closer look

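In 8 of the 98 combinations of member and group, 1 array stood apart from the others of its group by Dixon's criterion, where chance would flag about 4.9 (1 in 20). Csf3, which was near background, gave 5 of them: -0.57 in NRCWE-025 18 µg day 1 replicate 2, -0.072 in NRCWE-025 54 µg day 28 replicate 5, 0.35 in NRCWE-030 162 µg day 1 replicate 1, 0.016 in NRCWE-030 54 µg day 1 replicate 4 and -0.29 in vehicle day 28 replicate 5. Csf1 was high at -1.58 in NRCWE-025 18 µg day 28 replicate 1 and at -1.23 in NRCWE-025 54 µg day 1 replicate 3, and Csf2rb was high at 0.27 in NRCWE-030 18 µg day 1 replicate 1.

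The Csf2 ratio differed between materials at 54 µg on day 28 by 1.38 (log2, NRCWE-030 minus NRCWE-025), by the test of that difference (adjusted p = 0.0498). That call held under 4 of 14 alternatives and in 22 of 69 fits with 1 array left out. The Csf3r effect of 162 µg of NRCWE-030 differed between days by 1.55 (log2, day 1 minus day 28), by the test of that difference (adjusted p = 0.0418). It was called under 8 of 14 alternatives and in 56 of 69 such fits.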

How the results depend on the processing

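No paired analysis was possible because the labels number the mice by no shared animal, cage or day and replicate numbers were given in accession order. Alternatives added after seeing the data were the lung channel alone, leaving out the 2 arrays least like the others, and leaving out the 28 arrays high in heart muscle markers. Without those 28 arrays, 1 of the 5 day 28 vehicle lungs was left. Differences from vehicle on day 28 and between days then had that lung as their only day 28 vehicle. The count of 2 members called for NRCWE-030 at 162 µg on day 1 became 1 with the scanner log ratio (Csf2), the series table, the ordinary test (no moderation of variances), the lung channel alone and without arrays high in heart muscle markers (Csf3r each), and 0 with either slide or scan day fixed. It was 3 with the brightest probe (Csf2rb added) and with slide random (Csf2 added), 2 with scale normalisation (Csf2 in place of Csf1), and the same 2 members under the other 4 alternatives. Over all genes the count moved from 316 to between 50 (scan day) and 529 (scanner log ratio). For dose of NRCWE-030 on day 1 (1 member) it was 0 with the scanner log ratio and without arrays high in heart muscle markers, and 2 with slide as a random block (Csf2 and Csf3r). On day 28, 1 member, Csf2, was called for 54 µg of NRCWE-030 with slide or scan day fixed, for 162 µg with slide fixed, and for dose with slide random, slide fixed or scan day fixed, against 0. The call between days for NRCWE-030 (1) became 0 with marked backgrounds not replaced, no background correction, the scanner log ratio, the series table, the ordinary test and without arrays high in heart muscle markers. The call between materials on day 28 (1) became 0 under those alternatives other than the scanner log ratio and also under scale normalisation, slide random, slide fixed, scan day fixed, the lung channel alone and without the 2 arrays least like the others. With slide fixed, the vehicle comparison between days called 2 (Csf1 and Csf1r; 1375 genes in all), from 0.

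Leaving out 1 array gave 1 to 2 members at 162 µg of NRCWE-030 on day 1, 0 to 1 between days for NRCWE-030 and 0 to 1 between materials on day 28, the last of these lost in 18 of 69 fits: those without 1 of NRCWE-030 18 µg replicates 1, 3 and 4, 54 µg replicates 1 to 3 and 162 µg replicates 2 and 3, or NRCWE-025 18 µg replicates 1, 4 and 5, 54 µg replicates 1 to 5 and 162 µg replicates 3 and 4, all of day 28.

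Differences from vehicle at 162 µg that changed sign were all uncalled. On day 1 of NRCWE-025 they were Csf2 with marked backgrounds not replaced (-0.067), Csf2ra with scale normalisation (0.19) and slide fixed (0.019), and Csf3r with the scanner log ratio (-0.052). On day 1 of NRCWE-030 they were Csf3 with the scanner log ratio (0.17), slide fixed (0.047) and scan day fixed (0.037), Csf1r with scale normalisation (7e-04), the brightest probe (0.033), slide fixed (0.012) and scan day fixed (0.004), and Csf2ra with scale normalisation (0.089) and the lung channel alone (0.29). On day 28 of NRCWE-025 they were Csf1r with the scanner log ratio (0.038), the brightest probe (0.0047), slide fixed (0.021) and scan day fixed (0.021), Csf2rb with the scanner log ratio (-0.013), slide fixed (-0.002) and scan day fixed (-0.002), and Csf3r with no background correction (0.13), the series table (0.14), slide fixed (0.12), scan day fixed (0.12) and without arrays high in heart muscle markers (0.68). With 1 array left out, the sign turned in some fits for Csf1r in NRCWE-030 on day 1 (-0.106 to 0.0103 over 20 fits), Csf2rb in NRCWE-025 on day 28 (-3e-04 to 0.122 over 19 fits) and Csf3r in NRCWE-025 on day 28 (-0.28 to 0.0506 over 19 fits). The cause was not tested. Csf3 and the reference channel of Csf3r lay near background, which limits their ratios.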
